A study of Mus musculus with 2 samples.

Results

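The IFIT and IFITM genes are the subject here: 7 of the 26082 genes in the deposited table, chosen by family name. The IFIT genes were Ifit1, Ifit2, Ifit3 and Ifit3b, and the IFITM genes were Ifitm1, Ifitm2 and Ifitm3. All 7 had more than 3 counts in both libraries. RNA was sequenced from primary mouse fibro-adipogenic progenitors (FAPs), the muscle-resident mesenchymal cells that can become adipocytes. Both cultures were of WT genotype. 1 culture received a TGFBR3 overexpressing plasmid and the other received the vector as control, and both were then held in a medium that induces adipogenesis. Beside serum (FBS, 20%), this medium contained insulin at 10 μg/ml, dexamethasone at 0.25 μM and IBMX at 0.5 mM. The library from the first culture is called the TGFBR3-labelled library, after its label, and that from the second the control library. Where a pair of values stands without a library, the TGFBR3-labelled library comes first. The age and sex of the animals behind these 2 cultures, and whether animals were pooled, are not given in the labels. Each condition was 1 library, so no difference below has a replicate check, no p-value is given, and the intervals cover counting error only.

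The IFIT proteins are cytosolic proteins built of tetratricopeptide repeats. They are made in response to interferon and bind foreign or incompletely capped RNA and parts of the translation machinery. The IFITM proteins are small membrane proteins of the cell surface and the endosomes that hinder the fusion of enveloped viruses with the cell. Both families are known as interferon-stimulated genes, and many cells hold some IFITM protein before any interferon arrives.

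The families differed in both baseline and fold. Each of the 4 IFIT genes exceeded 2-fold in favour of the TGFBR3-labelled library, by 8.27-fold to 13.7-fold, from control levels of 4.53 to 60.9 FPKM (fragments per length of gene and size of library). Ifitm3 and Ifitm2 were already at 790 and 422 FPKM in the control library, and they moved in opposite directions by about the same size. Ifitm3 was 1.57-fold higher and Ifitm2 was 1.52-fold lower. Ifitm1 was below 1 FPKM in both libraries. These folds are plain ratios of FPKM. Genes were counted as past 2-fold on the ratio of (FPKM + 1), which damps low genes. Of the 17985 genes with more than 3 counts in both libraries, 1.96% were at least 2-fold higher and 0.656% at least 2-fold lower by that measure, and 14.2% and 4.74% by the plain ratio. The 4 of 4 IFIT genes and 0 of 3 IFITM genes past 2-fold, the same counts by both measures, are to be read against those shares. None of the 7 genes was at least 2-fold lower by either.

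The TGFBR3-labelled library held 62321027 counts and the control library 83779203. Tgfbr3, the gene to be overexpressed, was at 36.9 FPKM (16372 counts) in the TGFBR3-labelled library and at 35.1 FPKM (21245 counts) in the control library, a log2 ratio of 0.07 (95% interval 0.04 to 0.10). The label was therefore not borne out by the level of the mouse gene, which is why that library is called by its label throughout. The sequence carried by the plasmid is not given in the sources used here. A transcript of another species or with altered codons may not be counted as mouse Tgfbr3, so this level cannot show that overexpression failed. Among 8 FAP markers, Pdgfra was at 30.5 and 32.6 FPKM and Ly6a at 1013 and 706 FPKM, while Pi16 was at 0.03 and 0.08 FPKM, close to absent. Col1a1 was at 467 and 870 FPKM. Col3a1 and Dpt were at least 2-fold lower, or 3 of the 8 by the plain ratio, against 0.656% and 4.74% of all genes. The 10 macrophage markers were all below 1 FPKM in both libraries, summed to 0.94 FPKM in the TGFBR3-labelled library and 0.54 in the control library, and Adgre1, Tyrobp and Fcer1g had no count in either. Summed endothelial markers were at 2.17 and 2.03 FPKM, within which Kdr was higher (0.43 and 0.08 FPKM) and Cdh5 lower (0.58 and 0.84 FPKM), and myogenic markers at 1.60 and 1.30 FPKM. The 5 adipocyte markers summed to 35.3 FPKM in the TGFBR3-labelled library and 69.2 FPKM in the control library. Of them 2 were at least 2-fold lower, or 3 by the plain ratio, against 0.656% and 4.74% of all genes. In bulk RNA, fewer cells of a type and less RNA per cell cannot be told apart, and the part of this shift in the values below was not tested.

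The sequences before the annotated starts are given because interferon-stimulated genes are known to be switched on through short GAAA repeats in that stretch, bound by the ISGF3 complex and the IRF proteins. The windows are RefSeq sequences of build GRCm38.p6, whose chromosome coordinates are those of mm10. Their starts are RefSeq starts and differ by some bases from the gene coordinates given below, which come from another annotation (GENCODE). Distances to a start therefore depend on the annotation. They are written 5′ to 3′ on the strand of the gene, and the first 5 lines each end at the base before the start. Capitals mark matches, on either strand, to a short motif, GAAA with any 2 bases and a further GAAA, or to a long motif, which adds CT at the end and so always contains the short one. On the opposite strand the same letters read as TTTC repeats. The motifs were chosen after the sequences were seen.
Ifit1, chr19:34640639-34640888, plus strand: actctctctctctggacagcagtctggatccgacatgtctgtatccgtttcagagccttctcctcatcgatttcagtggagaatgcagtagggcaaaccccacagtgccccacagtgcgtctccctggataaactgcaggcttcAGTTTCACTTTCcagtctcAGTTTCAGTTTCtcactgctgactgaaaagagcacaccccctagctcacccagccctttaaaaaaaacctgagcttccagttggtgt
Ifit3, chr19:34583279-34583528, plus strand: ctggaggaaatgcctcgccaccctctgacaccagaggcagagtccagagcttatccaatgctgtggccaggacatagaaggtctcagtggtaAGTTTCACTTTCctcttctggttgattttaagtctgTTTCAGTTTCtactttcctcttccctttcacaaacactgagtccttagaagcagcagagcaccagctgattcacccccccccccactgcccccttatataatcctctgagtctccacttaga
Ifit3b, chr19:34607707-34607956, plus strand: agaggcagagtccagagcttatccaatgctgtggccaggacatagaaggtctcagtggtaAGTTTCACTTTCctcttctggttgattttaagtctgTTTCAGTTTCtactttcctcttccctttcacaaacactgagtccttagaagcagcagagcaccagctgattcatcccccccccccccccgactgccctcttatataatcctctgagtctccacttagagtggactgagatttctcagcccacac
Ifitm2, chr7:140955962-140956211, minus strand: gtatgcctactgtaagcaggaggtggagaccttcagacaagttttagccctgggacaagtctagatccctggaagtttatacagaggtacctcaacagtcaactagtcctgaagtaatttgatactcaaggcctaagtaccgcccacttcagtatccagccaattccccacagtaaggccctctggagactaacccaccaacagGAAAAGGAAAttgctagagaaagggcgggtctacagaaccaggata
Ifitm3, chr7:141010745-141010994, minus strand: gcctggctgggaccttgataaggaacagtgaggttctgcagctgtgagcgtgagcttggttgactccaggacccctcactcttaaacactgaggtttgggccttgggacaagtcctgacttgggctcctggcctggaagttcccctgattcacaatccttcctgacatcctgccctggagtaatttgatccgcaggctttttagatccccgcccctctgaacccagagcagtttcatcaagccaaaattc
Ifitm3, motif matches just after the start, chr7:141010714-141010742, minus strand: GAAAAGGAAACTtctgaGAAACCGAAACT

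Ifit1 held 2 long matches, whose bases lay 106 to 95 and 87 to 76 before the start. Ifit3 held 1 long match 158 to 147 bases before its start and 1 short match 122 to 113 bases before it. Ifit3b held the same pair of matches 190 to 179 and 154 to 145 bases before its start. The Ifit3 and Ifit3b stretches are near copies of each other: the 300-base windows (250 bases before the start and 50 after it) aligned over 274 columns with 94.5% identity. The Ifit2 entries of the RefSeq table held 2 windows, and neither had a short or long match.

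In the IFITM family, Ifitm3 held 2 long matches 2 to 13 and 19 to 30 bases after the start and none before it. Ifitm2 held 1 short match 46 to 37 bases before the start and no long match, and Ifitm1 held neither. Of all 32851 windows of the same length in the table, 3.44% held a short match and 0.271% a long one. The interferon-gamma type motif TTCNNNGAA stood in 8.30% of all windows, in 1 window of Ifit2 and in that of Ifitm3, where it bridges the matches. A match describes the letters of this window only, and the binding of a factor was not measured here.

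**Figure D1:**
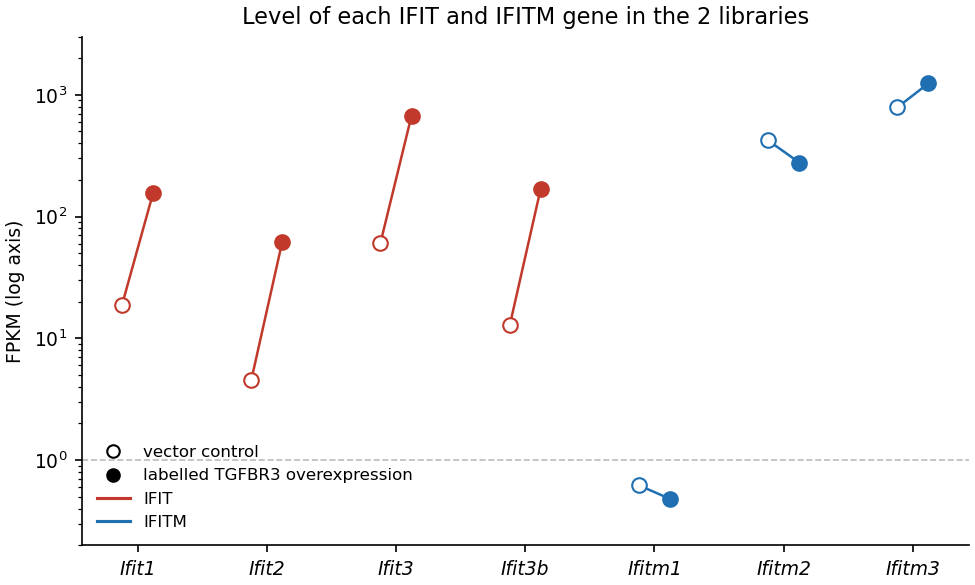
FPKM of each gene (vertical log axis) in the control library (open circles) and the TGFBR3-labelled library (filled circles), with 1 library each and a dashed line at 1 FPKM. The 4 IFIT genes start between 4.53 and 60.9 FPKM and end between 62.3 and 673 FPKM, while Ifitm3 and Ifitm2 start at 790 and 422 FPKM and Ifitm1 stays below the line.

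The IFIT genes lie side by side on chromosome 19, over 99.3 kb of mm10. Ifit1 (chr19:34640871-34650009, plus strand) encodes the member best known for binding messenger RNA whose cap lacks methylation. It was at 156 FPKM (28054 counts) in the TGFBR3-labelled library and at 18.8 FPKM (4620 counts) in the control library. The log2 ratio of (FPKM + 1), the measure used below, was 2.98 (95% interval 2.94 to 3.03). It was the smallest of the 4 IFIT ratios, from the second highest IFIT baseline per length.

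Ifit2 (chr19:34550694-34576419, plus strand) encodes a partner of the other IFIT proteins that is also linked to cell death. It was at 62.3 FPKM (16587 counts) in the TGFBR3-labelled library and at 4.53 FPKM (1644 counts) in the control library. The log2 ratio was 3.52 (3.45 to 3.58), and the fold without the pseudocount was 13.7 (13.1 to 14.5). Ifit2 was the least abundant IFIT gene per length in both libraries, and in the order of all genes by FPKM it stood at place 794 and at place 6504.

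Ifit3 (chr19:34583531-34588731, plus strand) encodes a protein that binds Ifit1 and Ifit2 proteins and steadies the complex. It was at 673 FPKM (79715 counts) in the TGFBR3-labelled library and at 60.9 FPKM (9821 counts) in the control library, with a log2 ratio of 3.45 (3.42 to 3.48). Ifit3 was the most abundant IFIT gene in both libraries and stood at place 47 and at place 776 of all genes. Ifit3b (chr19:34607970-34613401, plus strand), a mouse duplicate of Ifit3, was at 170 FPKM (23054 counts) and 12.8 FPKM (2358 counts). Its log2 ratio was 3.63 (3.58 to 3.69), the 16th largest of the 17985. It was the largest of the 7 genes on this measure, but Ifit2 was above it for the plain ratio (3.78 and 3.74), with a pseudocount of 0.1 and for CPM plus 1, so the order of these 2 genes is not settled.

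Counts of Ifit3 and Ifit3b cannot be fully separated. Their longest transcripts aligned over 1700 columns with 97.8% identity, and 61.8% of the 31-base words of Ifit3 occur in Ifit3b. How reads matching both were counted is not given in the sources used here. Ifit2 shared no word with another gene, and Ifit1 shared 10.5% of its words, most of them with Ifit1bl2. The 2 genes that read sharing touches least, Ifit2 and Ifit1, bracket most of the family's range of ratios.

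Within the family the order of the levels was the same for the highest and the lowest gene, and the middle places changed. In the control library the order per length was Ifit3, Ifit1, Ifit3b and Ifit2. In the TGFBR3-labelled library Ifit3b passed Ifit1, at 1.09 times its FPKM against 0.678 times in the control library. Comparisons of this kind within a library do not depend on the library totals.

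The count ratio of Ifit2 was higher than that of Ifit1 by 0.73 on the log2 scale (95% interval 0.65 to 0.82), and that of Ifit3b by 0.69 (0.61 to 0.76). For Ifit3 the excess over Ifit1 was 0.42 (0.36 to 0.47). Ifit2 and Ifit3b differed by 0.05 (−0.05 to 0.14), which these counts could not tell from no difference. As shares of summed IFIT FPKM, Ifit3 was 63.5% and 62.8% of the family in the TGFBR3-labelled library and in the control library, and Ifit1 was 14.7% and 19.4%. Ifit3b was 16.0% and 13.2%, and Ifit2 was 5.87% and 4.67%. The share of Ifit3 was thus nearly the same in both libraries, while that of Ifit1 was smaller and those of Ifit3b and Ifit2 larger in the TGFBR3-labelled library.

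**Figure D2:**
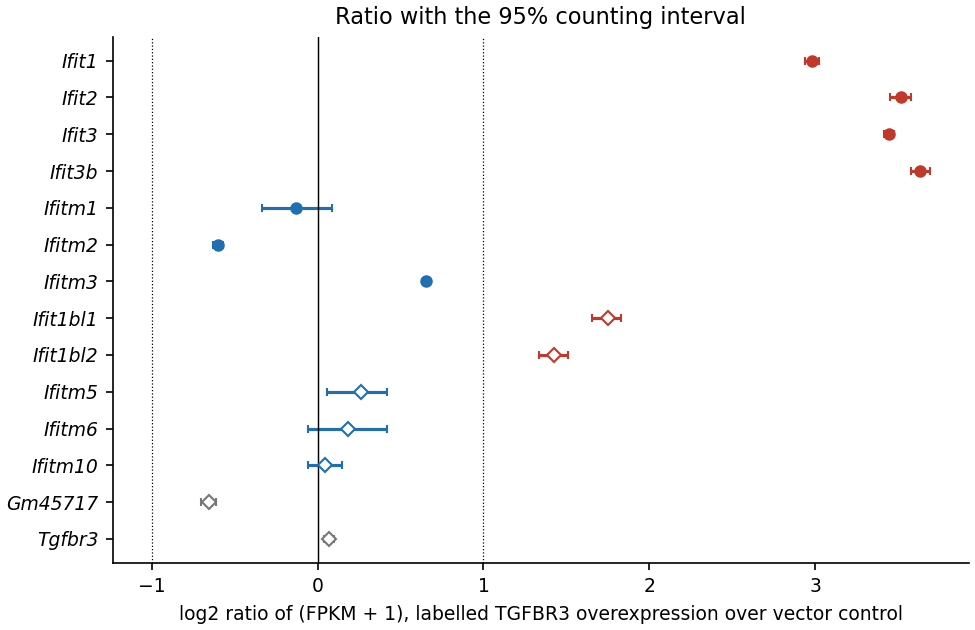
Log2 ratio of (FPKM + 1), TGFBR3-labelled over control library, for the 7 genes (filled circles), their paralogs, Gm45717 and Tgfbr3 (open diamonds), with bars for the exact 95% counting interval and dotted lines at 2-fold. The IFIT genes sit between 2.98 and 3.63, the IFITM genes between −0.60 and 0.65, and Tgfbr3 at 0.07.

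The IFITM genes lie on chromosome 7, within 55.9 kb. Ifitm3 (chr7:141009586-141010770, minus strand) encodes the endosomal member known for hindering influenza virus entry. It was at 1243 FPKM (57154 counts) in the TGFBR3-labelled library and at 790 FPKM (49475 counts) in the control library. The log2 ratio was 0.65 (0.64 to 0.67) and the fold 1.57 (1.55 to 1.59). Ifitm3 was the most abundant of the 7 genes per length in both libraries, at place 11 and place 44 of all genes.

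Ifitm2 (chr7:140954837-140955987, minus strand) encodes a close relative of Ifitm3 that also resides in endosomes. It was at 278 FPKM (12349 counts) in the TGFBR3-labelled library and at 422 FPKM (25535 counts) in the control library. The log2 ratio was −0.60 (−0.63 to −0.57). Of the 7 genes, it alone was lower with an interval that left out 0.

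A part of the Ifitm2 signal is shared with a second gene model. Gm45717, a read-through model on the same strand, overlaps Ifitm2 by 268 exon bases and Ifitm5 by 227, which together make its 495 exon bases. It was at 161 and 255 FPKM (5405 and 11643 counts), a log2 ratio of −0.66 (−0.70 to −0.61). With the counts of Ifitm2 and Gm45717 summed, an alternative chosen after seeing the data, the log2 ratio of the pair was −0.64.

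Ifitm1 (chr7:140967221-140969825, plus strand) encodes the member found mostly at the cell surface. It was at 0.48 FPKM (37 counts) and 0.62 FPKM (64 counts), with a log2 ratio of −0.13 (−0.33 to 0.09). Without the pseudocount the log2 ratio was −0.37 (−0.99 to 0.24). A difference in Ifitm1 was thus not detectable at this depth, and the interval still leaves room for one near 2-fold lower.

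The opposite moves of Ifitm3 and Ifitm2 changed the balance of the family. Ifitm3 was at 1.87 times the FPKM of Ifitm2 in the control library and at 4.47 times in the TGFBR3-labelled library. The difference between their count ratios was 1.26 on the log2 scale (1.22 to 1.29), in which the library totals cancel. As shares of summed IFITM FPKM, Ifitm3 was 65.1% in the control library and 81.7% in the other, and Ifitm2 was 34.8% and 18.3%. Their longest transcripts aligned over 365 columns with 83.3% identity, and Ifitm3 shared 20.5% of its 31-base words with other genes. Ifitm2 shared 55.5%, of which the largest part, 38.1% of its words, was with Gm45717, so the balance of this pair rests on a gene whose reads are less easily assigned.

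**Figure D3:**
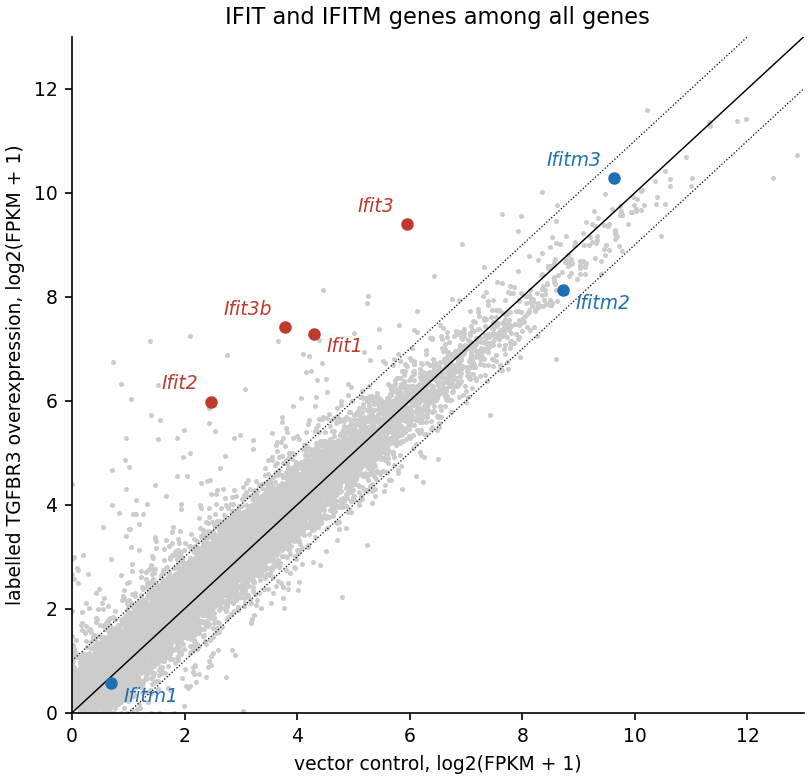
Log2(FPKM + 1) of genes of the series (grey), control library on the horizontal axis and TGFBR3-labelled library on the vertical, with the line of equality and dotted lines at 2-fold. Genes with few or no counts in a library are among the grey points. The 4 IFIT genes lie above the upper dotted line, and the 3 IFITM genes lie between the dotted lines, with Ifitm3 and Ifitm2 on either side of the line of equality near the top right.

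Summed over the family, IFIT FPKM was 1061 in the TGFBR3-labelled library and 97.0 in the control library, a 10.9-fold difference. Summed IFITM FPKM was 1521 and 1212, a 1.25-fold difference. IFITM RNA per length was thus 12.5 times IFIT RNA in the control library and 1.43 times in the TGFBR3-labelled library. As a share of all counts, IFIT genes went from 0.0220% (0.0217% to 0.0223%) to 0.237% (0.235% to 0.238%), and IFITM genes were at 0.0896% and 0.112%.

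The median log2 ratio was 3.48 over the 4 IFIT genes and −0.13 over the 3 IFITM genes, while all 17985 genes had a median of 0.08. The IFITM median is the value of Ifitm1, the gene with few counts. Over Ifitm2 and Ifitm3 alone, a choice made after seeing the data, it was 0.03, which averages the opposite moves of these genes and describes neither. Between single genes, the count ratio of Ifit3 was higher than that of Ifitm3 by 2.81 on the log2 scale (2.78 to 2.85), and that of Ifit1 by 2.39 (2.35 to 2.44).

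A shift common to all genes was smaller than these differences. The 10626 genes with at least 1 FPKM in both libraries had a median log2 ratio of 0.13, and 2.64% of them were at least 2-fold higher. Relative to that median, Ifit1 was at 2.86, Ifitm3 at 0.53 and Ifitm2 at −0.73. The ratio also followed the GC content of the genes, with bin medians from 0.45 at the lowest GC content to −0.25 at the highest. The exons of the IFIT genes were 42.4% to 47.5% GC and those of the IFITM genes 50.6% to 54.4% GC. With that trend removed, the IFIT ratios ran from 2.64 to 3.35, Ifitm3 was at 0.58 and Ifitm2 at −0.60.

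The table holds 6 other genes whose names begin with Ifit. Ifit1bl1 (chr19:34592891-34601956, minus strand) and Ifit1bl2 (chr19:34617049-34640743, minus strand) lie between the IFIT genes and encode Ifit1-like proteins. Ifit1bl1 was at 2.81 and 0.13 FPKM (432 and 27 counts), a log2 ratio of 1.75 (1.65 to 1.83). Ifit1bl2 was at 2.2 and 0.19 FPKM (502 and 61 counts), a log2 ratio of 1.43 (1.34 to 1.51). The pseudocount holds down the ratios of such low genes: without it the folds were 21.6 (14.6 to 33.2) and 11.6 (8.86 to 15.4). Both were thus at least 2-fold higher, at levels far below those of the 4 IFIT genes, and with the GC trend removed Ifit1bl2 was at 0.99, just under 2-fold. Ifit1bl1 shared 19.3% of its 31-base words with other genes and Ifit1bl2 16.8%, most of them with each other. In Ifit1, 9.16% of the words occur in Ifit1bl2. The part of shared reads in these 2 low ratios was not tested. Ifit1bl2 faces away from Ifit1, and the 2 long motif matches of Ifit1 (chr19:34640783-34640794 and chr19:34640802-34640813) also stand in the Ifit1bl2 window.

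The IFITM paralogs were close to absent. Ifitm5, the bone member, was at 0.32 and 0.10 FPKM (17 and 7 counts), and Ifitm6 at 0.85 and 0.63 FPKM (55 and 54 counts). Ifitm10 was at 0.72 and 0.67 FPKM, and Ifitm7 had no count in either library, which leaves room for up to 3 counts. The log2 ratio of Ifitm5 was 0.26 (0.06 to 0.42), and its plain ratio was 3.2 (1.26 to 9.13), an interval that left out equality at very few counts. The log2 ratios of Ifitm6 and Ifitm10 were 0.18 (−0.06 to 0.42) and 0.04 (−0.06 to 0.15), so no difference was detectable in these 2.

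The genes on either side of the IFIT genes did not share their fold. To one side, Lipa, the lysosomal acid lipase, lies 23.2 kb away with a log2 ratio of 0.30. Ch25h, a cholesterol hydroxylase that is itself known as interferon-stimulated, lies 75.5 kb away with 0.11. Fas, the death receptor, lies 223 kb away with 0.45. To the other side, Pank1 and Kif20b were at 0.09 and 0.11, and Slc16a12 was not analysed here. Thus the 2-fold threshold was passed by the 6 Ifit genes of this stretch and by none of the 5 measured neighbours. Only 1.96% of all genes were at least 2-fold higher, so a count of none among 5 does not set the neighbours apart. Beside the IFITM genes, Pgghg, 7.17 kb from Ifitm2, was at 4.21 and 10.2 FPKM with a log2 ratio of −1.10 (−1.19 to −1.01). Ifitm5, which lies between Pgghg and Ifitm2, was at 0.26 (0.06 to 0.42) on few counts. Nlrp6, farther out on that side, was not analysed here. Beyond Ifitm6 on the other side, Gm17387 was not analysed here and B4galnt4 had 0 and 8 counts.

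**Figure D4:**
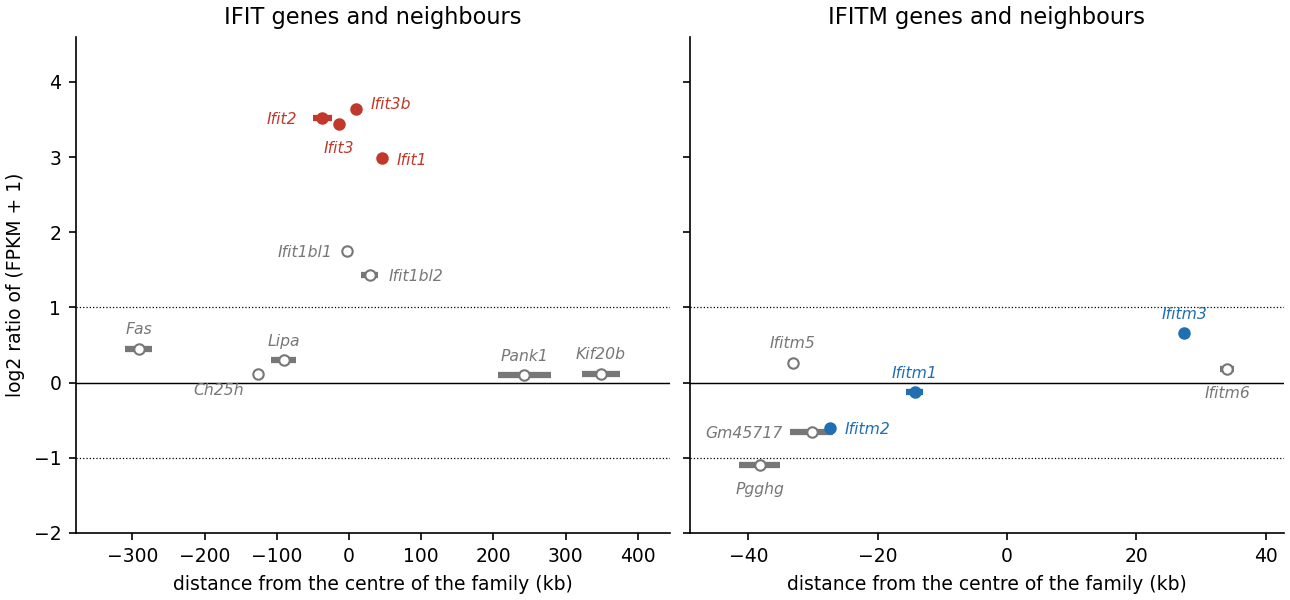
Log2 ratio of (FPKM + 1) against distance in kb from the centre of the IFIT genes (left) and IFITM genes (right), with coloured filled circles for the 7 genes, open circles for paralogs and neighbours with more than 3 counts in both libraries, and thick bars for gene extent. All 6 Ifit genes lie above the dotted 2-fold line with their neighbours at 0.09 to 0.45. Ifitm2 at −0.60 lies on the side of Pgghg at −1.10, with Ifitm5 at 0.26 between them. Ifitm3 at 0.65 lies on the other side.

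Both families are known targets of the interferon pathway, whose other genes were read from lists chosen with earlier results of these data known. At the level of ligands, 3 of 12 listed interferon genes were analysed here. Ifnb1, interferon beta, had 9 and 3 counts, a ratio of 4.25 with a counting interval of 1.06 to 24.4. The control count was at the floor of 3, and the ratio is of FPKM rounded to 0.17 and 0.04. A difference in Ifnb1 is therefore not established. Ifnz had 56 and 43 counts (0.56 and 0.32 FPKM), a plain ratio of 1.75 with a counting interval of 1.16 to 2.67. This interval left out equality, at levels below 1 FPKM and with no replicate. Ifna4 had no count in either library.

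Of 8 receptors and kinases 0 passed 2-fold, with a median log2 ratio of 0.05. With 1.96% of all genes at least 2-fold higher, a count of 0 among 8 does not set these genes apart. The receptor chains Ifnar1 and Ifnar2 were at 11.96 and 26.25 FPKM in the TGFBR3-labelled library and at 11.72 and 22.47 FPKM in the control library. Of the kinases, Jak2 was at 0.78 and Jak1 at 0.42.

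Among 8 genes of the ISGF3 complex and the interferon regulatory factors, 2 were at least 2-fold higher, or 4 by the plain ratio, and none at least 2-fold lower, against 1.96% and 14.2% of all genes higher by those measures. Irf7, the regulator that amplifies interferon production, was at 278.7 and 20.98 FPKM, a log2 ratio of 3.67 that was close to that of Ifit3b. Stat2 and Irf9, which act together in ISGF3, had log2 ratios of 1.41 and 0.97. Irf9 was thus just short of 2-fold on this measure, and its plain ratio of 2.03 was just past it. Both were below the ratio of all 4 IFIT genes and above that of Ifitm3. Of 5 negative regulators 1 was at least 2-fold higher, against 1.96% of all genes. This was Usp18, which restrains the interferon receptor, at 142 and 20.0 FPKM and a log2 ratio of 2.77. By the plain ratio 1 of the 5, the phosphatase gene Ptpn6 with 13 and 75 counts, was also at least 2-fold lower, against 4.74% of all genes.

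Of 9 nucleic acid sensors and adaptors 4 were at least 2-fold higher, against 1.96% of all genes, and 5 by the plain ratio, against 14.2%. The 4 were Ifih1 at 1.76, Dhx58 at 1.53, Ddx58 at 1.49 and Tlr3 at 1.39. With the GC trend removed they were at 1.33, 1.54, 1.21 and 0.96, so Tlr3 was then just under 2-fold. All 4 detect viral RNA, and the median of the 9 was 0.91. Thus the IFIT genes, which bind such RNA, had larger ratios than the receptors that sense it.

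The proteins that work with each family were compared last. Of 10 genes for cap methylation, cap binding and the eIF3 complex, the machinery on which IFIT proteins act, 1 was at least 2-fold higher, against 1.96% of all genes, and 2 were by the plain ratio, against 14.2%. The first was Cmtr1, the cap methyltransferase whose mark hides messenger RNA from Ifit1, at 23.1 and 10.2 FPKM and a log2 ratio of 1.11. Its relative Cmtr2 was at 0.79, and its plain ratio was 2.54. The median of the list was 0.43.

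Of 8 genes linked to IFITM proteins 0 passed 2-fold in either direction by either measure, with a median of 0.15. Against 1.96% and 0.656% of all genes, this count does not set them apart. Zmpste24, a membrane protease that works with IFITM proteins, was at 0.68, a ratio near that of Ifitm3. Cd9, a tetraspanin of the cell surface, was at −0.57, near that of Ifitm2. Zdhhc20, which attaches palmitate to IFITM proteins, was at 0.49. These likenesses did not hold with the GC trend removed. Zmpste24 was then at 0.25 against 0.58 for Ifitm3, and Cd9 at −0.80 against −0.60 for Ifitm2. Zdhhc20 was then at 0.04.

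**Figure D5:**
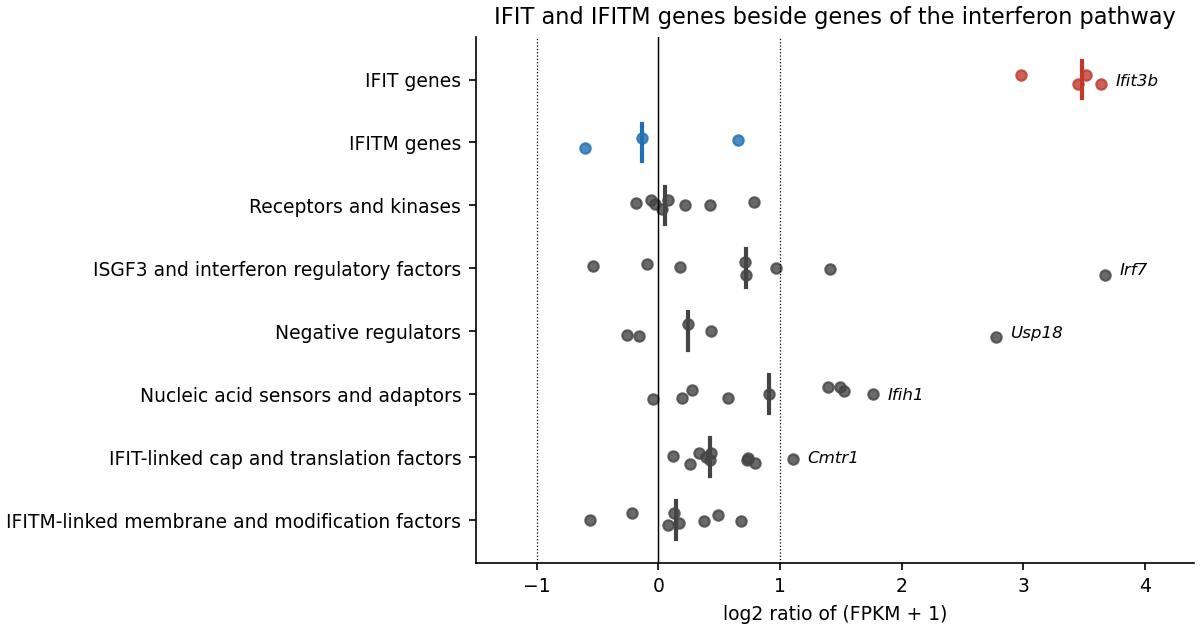
Log2 ratio of (FPKM + 1) of each IFIT and IFITM gene and of each gene in 6 pathway lists (points), with a vertical bar at the median of each row and dotted lines at 2-fold. The IFIT genes lie at 2.98 to 3.63, and outside that family the farthest points are Irf7 at 3.67 and Usp18 at 2.77.

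The genes nearest to each family were found by distance from the family mean on the 2 log2(FPKM + 1) scales, a likeness over 2 libraries only. Nearest to the IFIT mean were Usp18, Igtp, Irgm1, Ddit3 and Irf7, at distances of 0.44 to 0.69. Igtp and Irgm1 are interferon-inducible GTPases, at log2 ratios of 3.49 and 2.80, and Ddit3 is a transcription factor of the stress response, at 2.66. Nearest to the IFITM mean were Islr, Plpp3, Slc25a3, Rps24 and Gm6136, with log2 ratios from −0.13 to 0.03. That mean lies far from each of its members: Ifitm1 is below 1 FPKM and the others are at 278 FPKM or more.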

How the data were processed

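RNA-seq of 2 libraries was used, 1 per group, with the groups taken from the labels. For each gene the authors deposited a raw count and an FPKM value, the count scaled by gene length and a library total and rounded to 2 decimals. The paper names STAR and FeatureCounts on mm10. The submitters' processing notes list cutadapt 1.9, HISAT2 2.2.1, StringTie 2.1.6, DESeq2 and edgeR instead, and the annotation release is not given in the sources used here. Paired reads of 150 nt came from poly(A) RNA with a dUTP-marked strand. Whether molecular identifiers or duplicate reads were counted is not given. The intervals take each count as independent, so they are too narrow if copies of the same molecule were counted.

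Libraries were compared by their log2 ratio of (FPKM + 1), TGFBR3-labelled over control, and 2-fold was the threshold. A pseudocount of 1 understates the change of low genes. Intervals are exact Clopper-Pearson intervals (95%) for how a gene's counts divide between the libraries, scaled to that measure. Intervals of a difference between 2 genes used the normal approximation on log counts, which covers counting error only. Folds without the pseudocount are ratios of FPKM. The floor was 3 counts. With no replicates no count model was run. The totals of 62321027 and 83779203 counts set the precision: Ifit3 had 79715 and 9821 counts, Ifitm1 only 37 and 64.

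Coordinates, exon lengths, GC content, overlaps and shared 31-base words came from GENCODE M21 on mm10, which held 26012 of the 26082 gene identifiers. Sequences came from the RefSeq promoter table, which held all 7 genes. GC and exon length trends were removed as the median ratio in 20 bins over 11207 genes. Scripts (Python 3.11.15, scipy 1.17.1) were tested on simulated independent counts. That test held no duplicate or shared reads, left out low genes and used the ratio without the pseudocount. It therefore checks the calculation and not whether the intervals suit these data. Named genes were the 7 genes, other Ifit-named genes, Tgfbr3, up to 4 genes of largest ratio in each list plus Stat2 and Irf9, the 3 nearest protein-coding genes on each side of a family, and the 5 genes nearest to each family mean; Ifnar1, Ifnar2 and marker genes were named beside these, as was Gm45717 for its overlap. The members and lists were chosen with earlier results of these data known, and 1 listed gene is not reported here. Alternatives were other pseudocounts, the plain ratio, CPM, centring, rescaling, trend removal, other thresholds and summed paralogs.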

Additional observations from a re-analysis of the deposited data

How the results depend on the processing

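No member changed direction under any setting tried: of 50 values, 24 stayed within the counting interval of the main value, 26 left it and 0 changed sign. The IFIT ratios ran from 2.64 (Ifit1) to 3.78 (Ifit2), Ifitm3 from 0.53 to 0.65 and Ifitm2 from −0.73 to −0.60. The IFIT median of 3.48 became 3.59 with a pseudocount of 0.1, 3.60 for the plain ratio, 3.55 for CPM plus 1, 3.35 centred on the median gene and 3.18 with the GC trend removed. The IFITM median became −0.37 for the plain ratio, and 0.03 without Ifitm1, a setting chosen after seeing the data. The difference between the medians, 3.61, became 3.91 with a pseudocount of 0.1 and 3.97 for the plain ratio. All 4 IFIT genes were past 2-fold in every setting and past 4-fold as well. At 1.5-fold, 1 IFITM gene (Ifitm3) was higher, against 0 at 2-fold. Genes at least 2-fold higher numbered 352 of 17985, and 2546 for the plain ratio, which counts low genes without damping. No paired analysis was possible because each group holds 1 library. Depth limits Ifitm1 and the paralogs under 1 FPKM. For the IFIT genes, Ifitm2 and Ifitm3 the missing replicates are a limit. For Ifit3, Ifit3b and Ifitm2 the assignment of shared reads is a further limit.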
